A study of Chenopodium quinoa with 15 samples.

Results

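The comparison set the male organ of the flower against the female organ. It used 3 libraries of stamens and 3 libraries of pistils of quinoa (Chenopodium quinoa, variety NL-6), 6 of the 15 libraries of the series. Both organs came from newly opened flowers of untreated, soil-grown plants of about 7 weeks, and they were chosen by the organ in the sample labels. Many stamens or pistils were pooled for each replicate. The study described the replicates as independent and biological, but no label said whether they came from separate plants. The p-values below thus measure the spread between these pools, which may not be the spread between plants. The libraries of leaf, salt-treated leaf and root entered only where they are named.

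A stamen of an open flower is a filament bearing an anther full of ripe pollen, whose cells hold stored transcripts for a pollen tube that grows at its tip by secreting pectin-rich wall, with calcium, actin and small GTPases steering the secretion. A pistil is a stigma, a style and an ovary, a green and still growing organ whose ovules hold the egg. In Arabidopsis, stamens are specified by the MADS-box proteins PISTILLATA and APETALA3 with AGAMOUS, and carpels and ovules by AGAMOUS with CRABS CLAW, YABBY proteins and the ovule factor SEEDSTICK (AGL11).

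The deposited table gave whole read counts for 58522 genes, with 12499775 to 14630502 counted reads in the stamen libraries and 12696715 to 13886363 in the pistil libraries. Of the genes, 14124 (24.1%) carried a protein title from a similarity search that named more than an unknown protein, and genes are described by these titles. The libraries of one organ ranked genes alike (Spearman's rho from 0.975 to 0.988 across genes), and those of different organs did not (0.465 to 0.504). Counts per gene differed between any pair of replicates by more than sampling noise allows (mean chi-square of 4.53 to 6.71 per gene), so none was treated as a repeat deposit of another. Reads were concentrated in stamen: the 100 most read genes took 26.8 to 27.3% of the reads there and 8.21 to 8.36% in pistil.

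This concentration made the scaling of the libraries matter. Levels below are in CPM, the reads of a gene as a share of the library total, scaled by TMM, which assumes that most genes do not differ, and they are used to compare one gene between organs. Log2 fold changes are stamen over pistil, so that a positive value is higher in stamen. The median log2 fold change of all tested genes was -0.40 with TMM and -2.09 with the total library size, a shift of 1.69 in the median. The shift was smaller for genes with no read in one organ. The 3 values given for a gene in each organ are those of replicates 1, 2 and 3. FPKM, which the authors scaled by gene length and read number, is used only to rank different genes within one organ.

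Of 32373 genes with enough reads to test, 9370 were called higher in stamen (28.9%) and 13188 higher in pistil (40.7%), at an adjusted p under 0.05 in the quasi-likelihood test of edgeR and a log2 fold change of at least 1. With the total library size 4314 genes were called higher in stamen (13.3%) and 21584 in pistil (66.7%). The share of calls that were higher in stamen was thus 41.5% with TMM and 16.7% with the total library size. No gene was called in opposite directions by the 2 scalings, and all 4314 stamen calls of the stricter scaling and all 13188 pistil calls with TMM were shared. Each gene named below was called with both scalings unless its sentence says otherwise. Of the stamen calls 9290 had no overlap among the 6 libraries, and of the pistil calls 13120 had none.

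**Figure D1:**
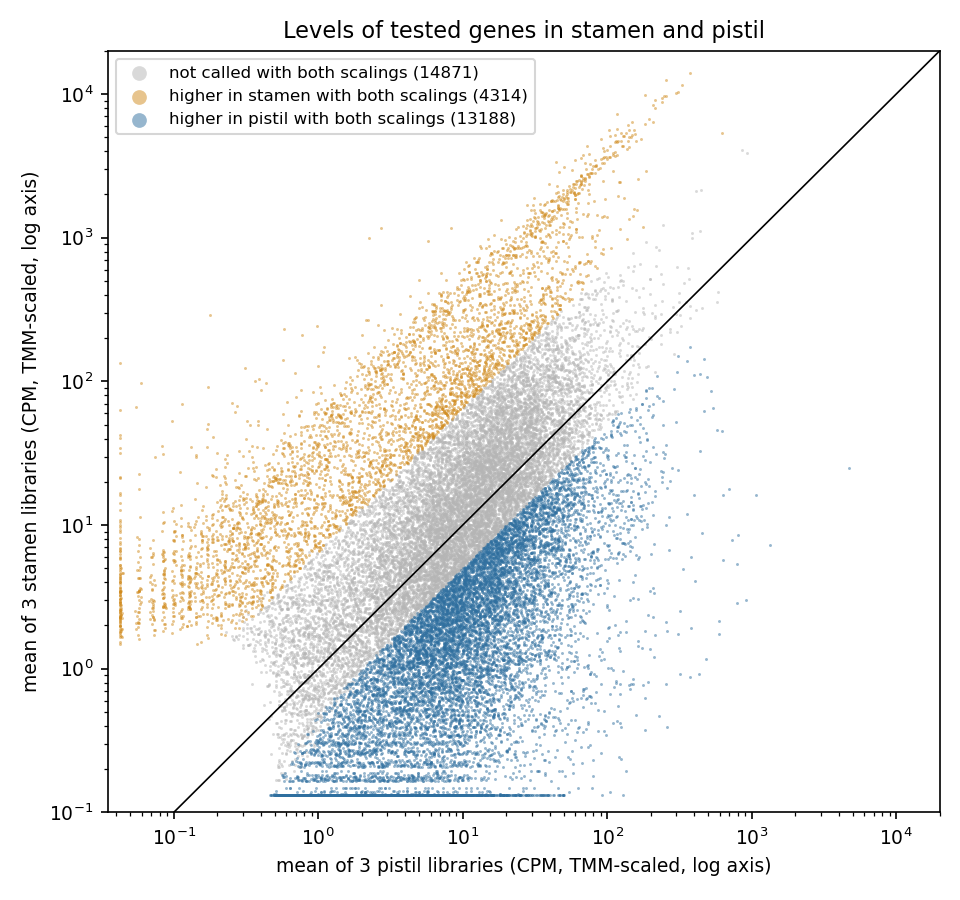
Each point is 1 of 32373 tested genes, with its mean over 3 pistil libraries on the x axis and over 3 stamen libraries on the y axis, both in TMM-scaled CPM on log axes. Means under the level of 3 reads over 3 libraries (0.0425 CPM in pistil, 0.132 CPM in stamen) are drawn at that level, and the line marks equal levels. The 4314 stamen genes and the 13188 pistil genes are those called with both scalings. The scaling sets one axis against the other, so levels of different genes are not compared between the organs.

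Markers of each organ were read first, since they test the labels. The stamen markers were 26 genes, titled as pollen, anther or stamen identity proteins or taken by locus as ANX and BUPS receptor homologs. They summed to 31400, 30030 and 31990 CPM in the stamen libraries and to 1817, 1412 and 1530 CPM in the pistil libraries. The study had reported the ANX and BUPS homologs as mainly expressed in stamen from the same libraries, so their part is not an independent check. The 16 genes titled as carpel or ovule factors summed to 29.97, 28.58 and 29.81 CPM in stamen and to 415.4, 401.0 and 408.6 CPM in pistil. The 59 photosynthesis genes used as markers of green tissue summed to 212.7, 221.6 and 130.1 CPM in stamen and to 1175, 1434 and 1646 CPM in pistil. All 3 sums separated the organs without overlap, in the direction of the labels. Of the pollen and stamen markers 23 were tested, with 14 higher in stamen and 6 higher in pistil, and 3 of the 26 had no read in pistil and 2 had none in stamen. Of the carpel and ovule markers all 16 were tested, with 1 higher in stamen and 14 in pistil, and 1 had no read in stamen. The libraries are whole organs, so fewer cells of a type and less RNA per cell cannot be told apart.

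PISTILLATA, the MADS-box factor that specifies stamens and petals, was among the clearest stamen genes. Its copy CqNL-6_017091, chromosome 5, 11705261 to 11719277, on the NL-6 assembly, had 249.7, 269 and 222 CPM in stamen against 3.91, 1.92 and 1.91 CPM in pistil, a log2 fold change of 6.59 ± 0.24 (SE, 3 libraries per organ, adjusted p = 1.1e-10). All stamen libraries lay far above all pistil libraries, and pistil replicate 1 was the highest of the pistil libraries. The second copy, CqNL-6_002488, had 135 ± 25.4 CPM in stamen and 1.90 ± 0.259 CPM in pistil (mean ± SD, n = 3). Its usual partner did not share the pattern. The genes titled APETALA3, named here after their values were seen, were higher in pistil or not called. CqNL-6_002080 had 49.97 ± 8.61 CPM in stamen and 143 ± 10.1 CPM in pistil and was called higher in pistil (log2 fold change -1.52). CqNL-6_010501 had 90.8 ± 11.5 and 139.6 ± 6.46 CPM and was called higher in pistil with the total library size alone (log2 fold changes -0.62 and -2.32). AGAMOUS (CqNL-6_033215), which works in both organs, had 128 ± 13.9 CPM in stamen and 192 ± 12.1 CPM in pistil, a log2 fold change of -0.59 that was not called with TMM and became -2.28, a pistil call, with the total library size.

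Several carpel and ovule factors had few or no reads in stamen. CRABS CLAW, needed for carpel and nectary growth in Arabidopsis (CqNL-6_044610, chromosome 1, 74932402 to 74935770), had 0.123, 0 and 0.294 CPM in stamen against 56.0, 48.5 and 57.6 CPM in pistil. Its 3817 pistil reads against 3 stamen reads made it 409-fold higher in pistil (95% counting interval 140 to 1990, and 1330-fold with the total library size). The ovule identity factor AGL11 (CqNL-6_002850, chromosome 16, 37196194 to 37203264) had 0.370, 0 and 0.294 CPM in stamen against 70.1, 66.5 and 64.0 CPM in pistil, a log2 fold change of -8.20 ± 0.27 (SE, adjusted p = 7.0e-11). Stamen libraries held at most a trace of either gene. A second AGL11 copy (CqNL-6_017568) had 0.370, 0.769 and 0.587 CPM in stamen against 84.2, 85.9 and 75.8 CPM in pistil. A gene titled FBP24 (CqNL-6_036858, chromosome 15, 1403457 to 1407290), a MADS-box protein whose petunia namesake acts in the ovule coat, had 0 CPM in all stamen libraries against 39.8, 37.3 and 39.8 CPM in pistil. Its 2753 pistil reads against none in stamen put it at least 295-fold (at least 957-fold with the total library size) higher in pistil. YABBY 1, which sets the outer side of lateral organs in Arabidopsis (CqNL-6_001014), had 0.123, 1.03 and 0.147 CPM in stamen against 37.8, 33.9 and 41.0 CPM in pistil, and its level in stamen replicate 2 was above those of the other stamen libraries.

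The MADS-box list as a whole held 74 genes, of which 37 could be tested. Of these, 22 were higher in stamen and 12 higher in pistil (13 and 14 with the total library size). The median log2 fold change was 1.88 against -0.40 for all tested genes. Among all tested genes 28.9% were higher in stamen and 40.7% in pistil (13.3% and 66.7% with the total library size). Members higher in stamen included a gene titled MADS-box transcription factor 27 (CqNL-6_011390), with 262, 271 and 292 CPM in stamen against 8.44, 5.54 and 5.52 CPM in pistil. The carpel and ovule list was not the same set of genes as the 16 markers above, of which 14 were higher in pistil. Of the 17 tested members of the list, 1 was higher in stamen and 9 higher in pistil (0 and 16 with the total library size). Their median was -1.94. The 1 stamen member was a low gene titled SPATULA (CqNL-6_049168), with 3.08, 2.31 and 3.23 CPM in stamen against 0.578, 1.53 and 1.58 CPM in pistil. Its log2 fold change of 1.21 turned to -0.49 with the total library size, where it was not called, and it was not called without stamen replicate 3 (1.10) or without pistil replicate 1 (0.86).

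**Figure D2:**
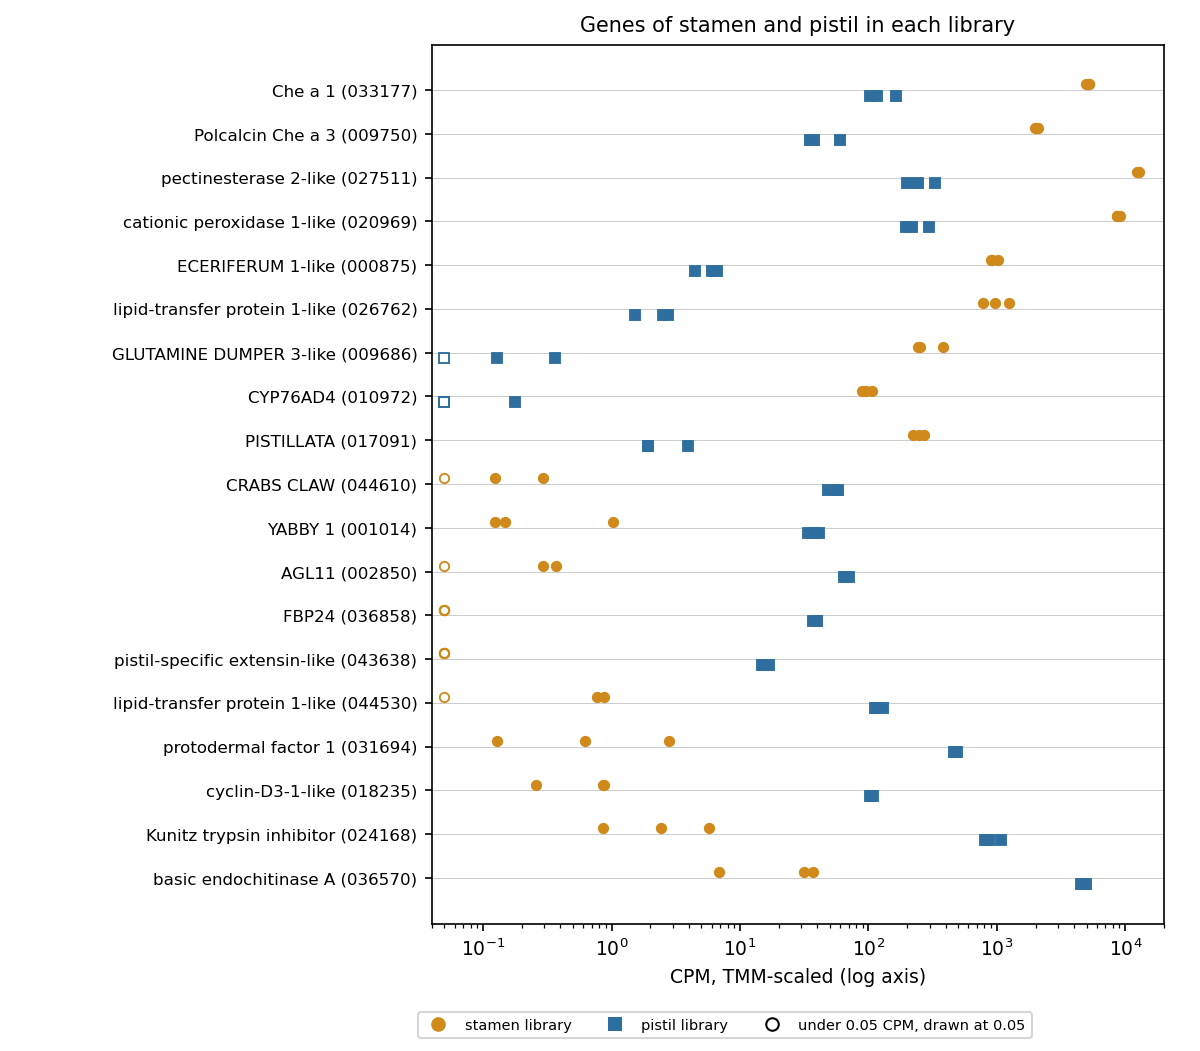
Levels of 19 genes in each of the 6 libraries, in TMM-scaled CPM on a log axis. Circles are stamen libraries, squares are pistil libraries, and open symbols are values under 0.05 CPM, drawn at 0.05. Gene numbers in brackets complete the identifier CqNL-6. In every row the stamen libraries lie apart from the pistil libraries, which was a condition of choice for some of these genes.

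Pollen allergens were among the most abundant titled transcripts of stamen. Che a 1, a secreted pollen protein of the Ole e 1 family known as an allergen of the related goosefoot (CqNL-6_033177, chromosome 8, 13504436 to 13505214), had 5257, 5190.2 and 4965 CPM in stamen against 164, 103 and 116 CPM in pistil, a log2 fold change of 5.33 ± 0.25 (SE, adjusted p = 7.8e-10). Polcalcin Che a 3, a calcium-binding pollen protein (CqNL-6_009750, chromosome 18, 6370203 to 6370463), had 2052, 2100.0 and 1986 CPM in stamen against 59.6, 35.1 and 37.9 CPM in pistil, a log2 fold change of 5.53 ± 0.24 (SE, adjusted p = 4.0e-10). Both genes were even across the stamen libraries and highest, among the pistil libraries, in replicate 1. A pollen-specific leucine-rich repeat extensin, a class of wall protein that in Arabidopsis guides tube growth (CqNL-6_009043), had 2072, 2020.1 and 1973 CPM in stamen against 85.1, 67.2 and 72.9 CPM in pistil.

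Of 19 genes titled as pollen or anther proteins 14 were tested, with 8 higher in stamen and 5 higher in pistil (8 and 6 with the total library size), beside 28.9% and 40.7% of all tested genes. The pistil members went against the name of the list. A gene titled major pollen allergen Ole e 10 (CqNL-6_033303, chromosome 8, 16780749 to 16781924) had 0, 0 and 1.17 CPM in stamen against 127, 129.9 and 118 CPM in pistil, and the one stamen library with reads was replicate 3. The title refers to an olive protein that binds wall glucans. A gene titled POLLENLESS 3-LIKE 2 (CqNL-6_016663), whose Arabidopsis relatives act in meiosis, was also a pistil gene, with 833 reads in pistil and 3 in stamen, 89.3-fold higher in pistil (95% counting interval 30.5 to 434, and 289-fold with the total library size).

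Ranked by FPKM within stamen, the first called gene with a title was a stress-induced protein KIN2-like gene (CqNL-6_013877, chromosome 13, 4706405 to 4707562), with a mean FPKM of 8010.3. It had 2939, 2867 and 2775 CPM in stamen against 68.7, 34.7 and 35.7 CPM in pistil. It was followed by a bifunctional inhibitor and lipid-transfer protein (CqNL-6_002836, FPKM 7414), pectinesterase 2-like (CqNL-6_027511, 5984), Che a 1 (5618), glutathione peroxidase 4 (CqNL-6_043369, 5398), cationic peroxidase 1-like (CqNL-6_020969, 5025), polcalcin (4347) and an exopolygalacturonase (CqNL-6_008234, 4013). Their log2 fold changes lay between 5.12 and 5.95, and in all 8 the highest pistil library was replicate 1.

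Pectinesterases and polygalacturonases, enzymes that act on the pectin of the cell wall, had the highest medians of the lists. All tested genes, by comparison, had 28.9% higher in stamen and 40.7% in pistil (13.3% and 66.7% with the total library size). Pectinesterases remove methyl groups from pectin, and of 53 genes 32 were tested, with 24 higher in stamen and 8 higher in pistil (23 and 8 with the total library size) and a median log2 fold change of 5.12. Pectinesterase 2-like (CqNL-6_027511, chromosome 18, 21181420 to 21183514) had 12789, 12267 and 12543 CPM in stamen against 330.4, 199.8 and 241 CPM in pistil, a log2 fold change of 5.61 ± 0.30 (SE, adjusted p = 2.2e-09). A pectinesterase inhibitor-containing enzyme on chromosome 2 (CqNL-6_006357) had 4578, 4849 and 5099.9 CPM in stamen against 125, 72.9 and 72.2 CPM in pistil. Neither gene overlapped between organs. The pistil members were far lower genes, such as pectinesterase 51 (CqNL-6_016957), with 0, 0 and 0.147 CPM in stamen against 28.5, 29.8 and 29.1 CPM in pistil, 662-fold higher in pistil (95% counting interval 119 to 26200, and 2150-fold with the total library size).

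Polygalacturonases, which cut the pectin backbone, showed the same division. The counts below stand beside 28.9% stamen and 40.7% pistil calls over all tested genes (13.3% and 66.7% with the total library size). Of 31 tested among 50, 18 were higher in stamen and 8 in pistil (16 and 12 with the total library size), with a median of 4.81. The exopolygalacturonase named above (CqNL-6_008234, chromosome 3, 16690463 to 16693732) had 9490.1, 9642 and 9131 CPM in stamen against 303, 197 and 223 CPM in pistil. A second one (CqNL-6_023569) had 3455, 3259 and 3696 CPM in stamen against 105.1, 67.9 and 74.6 CPM in pistil. In pistil, a probable polygalacturonase (CqNL-6_026081) had 0, 0 and 0.294 CPM in stamen against 36.7, 38.2 and 42.3 CPM in pistil and was 445-fold higher in pistil (95% counting interval 123 to 3670, and 1440-fold with the total library size). Of 12 tested pectate lyases 8 were higher in stamen and 2 in pistil (6 and 4), led by CqNL-6_037948 with 4429.9, 4471 and 5009 CPM in stamen against 145, 98.7 and 95.04 CPM in pistil. Arabinogalactan proteins and extensins gave 13 higher in stamen and 5 higher in pistil of 20 tested (8 and 7 with the total library size), and COBRA-like 10, which in Arabidopsis is anchored at the pollen tube surface (CqNL-6_022702), had 2328, 2224 and 2580.0 CPM in stamen against 72.6, 50.3 and 52.8 CPM in pistil. The pistil side of that list held a gene titled pistil-specific extensin (CqNL-6_043638, chromosome 14, 56357532 to 56359843), with 0 CPM in all stamen libraries against 15.2, 16.7 and 14.9 CPM in pistil and a ratio of at least 118-fold (at least 383-fold with the total library size).

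Genes of vesicle traffic were also mostly higher in stamen with TMM. For all tested genes the shares were 28.9% in stamen and 40.7% in pistil, or 13.3% and 66.7% with the total library size. Of 80 tested exocyst, SNARE and vesicle coat genes 58 were higher in stamen and 10 in pistil, with a median of 1.97 (30 and 19 with the total library size). RABH1e, a small GTPase of the secretory pathway (CqNL-6_011433), had 771, 743.5 and 762 CPM in stamen against 28.7, 19.7 and 18.2 CPM in pistil. A clathrin assembly protein (CqNL-6_049766) had 2136, 1869 and 2148 CPM in stamen against 76.8, 53.7 and 61.2 CPM in pistil. The pistil member with the highest FPKM was KNOLLE, the syntaxin that builds the cell plate of dividing cells (CqNL-6_025835), with 0.247, 0.641 and 0.294 CPM in stamen against 12.8, 12.7 and 14.7 CPM in pistil. The libraries of the organs did not overlap in any of the 3 genes.

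Calcium sensors and their kinases gave 41 higher in stamen and 17 higher in pistil of 72 tested, but 27 and 30 with the total library size. Calmodulin-like protein 7 (CqNL-6_037496) had 1465, 1501 and 1464 CPM in stamen against 38.9, 28.3 and 27.3 CPM in pistil. Actin and its regulators gave 19 higher in stamen and 11 higher in pistil of 45 tested (12 and 24 with the total library size), with a median of 0.48. Actin-11 (CqNL-6_013177, chromosome 1, 4531390 to 4533663) had 2410.5, 2570.0 and 2782 CPM in stamen against 86.4, 56.6 and 59.9 CPM in pistil. Profilin-3-like, an actin monomer-binding protein (CqNL-6_000458), had 1228, 1273 and 1279 CPM in stamen against 59.3, 42.8 and 46.3 CPM in pistil. Formin-like protein 1, an actin nucleator (CqNL-6_036663), had 0.740, 1.03 and 2.20 CPM in stamen against 39.8, 39.8 and 37.7 CPM in pistil. Phosphoinositide and phospholipase enzymes gave 26 higher in stamen and 11 higher in pistil of 51 tested (17 and 23 with the total library size), led by phosphatidylinositol 4-kinase gamma 4 (CqNL-6_004635) with 4723, 4449 and 4912 CPM in stamen against 168, 113 and 136 CPM in pistil. ROP GTPases and their regulators were divided, with 10 higher in stamen and 9 higher in pistil of 21 tested (10 and 11). With TMM these were 47.6% and 42.9%. The lists of this paragraph stand beside 28.9% and 40.7% of all tested genes with TMM, and 13.3% and 66.7% with the total library size. The ROP effector RIC10 (CqNL-6_014263) had 829.9, 807 and 836 CPM in stamen against 26.2, 16.8 and 17.8 CPM in pistil. Interactor of constitutive active ROPs 3 (CqNL-6_042133) had 0.247, 0.256 and 0.734 CPM in stamen against 71.1, 69.1 and 80.1 CPM in pistil.

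Transporters of potassium and protons followed, with 28 higher in stamen and 7 higher in pistil of 45 tested, a median of 4.52, and 24 and 17 with the total library size. Cation/H+ antiporters 15 (CqNL-6_016922) and 14-like (CqNL-6_018619) had log2 fold changes of 4.94 and 5.71. Among 37 tested sugar transporters 20 were higher in stamen and 5 in pistil, but 15 and 15 with the total library size. Shares over all tested genes were 28.9% and 40.7% with TMM and 13.3% and 66.7% with the total library size. Sugar transport protein 10-like, a hexose importer of pollen tubes in Arabidopsis (CqNL-6_031555), had 885, 865 and 769.8 CPM in stamen against 29.9, 18.4 and 19.9 CPM in pistil. A pistil member, sugar transport protein 5 (CqNL-6_010194), had 22.7, 22.3 and 22.5 CPM in stamen against 93.8, 95.7 and 104 CPM in pistil. Aquaporins were split evenly, with 4 higher in stamen and 4 higher in pistil of 8 tested (4 and 4 with the total library size), and TIP5-1, a pollen aquaporin in Arabidopsis (CqNL-6_046594), was on the stamen side with 86.2, 91.2 and 93.5 CPM in stamen against 2.62, 1.19 and 1.26 CPM in pistil. The insoluble (cell wall) invertase CqNL-6_020811, which splits sucrose outside the cell, was a pistil gene with 0.123, 0 and 0 CPM in stamen against 14.0, 16.7 and 18.1 CPM in pistil.

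The level of each gene in the other organ was described next. Among 2150 genes called higher in stamen with both scalings and at 50 CPM or more there, the level in pistil was a median of 4.59% of the level in stamen, with 770 genes (35.8%) between 2 and 4% and 40 (1.86%) under 1%. The 1036 pistil genes of the same minimum had a median stamen level of 11.6% of the pistil level, and 10.1% of them were under 1%. With the total library size the order turned, with medians of 14.9% for the stamen genes and 3.59% for the pistil genes, 19.7% of which were under 1%. A call with both scalings sets a lower ceiling on the share for stamen genes, none of which was above 16%, than for pistil genes, so the organs' shares are a description and not a comparison. Of the 2150 stamen genes 1624 (75.5%) were highest, among the pistil libraries, in replicate 1, where their median level was 1.15 times the pistil mean, against 0.917 and 0.922 times in replicates 2 and 3. Genes called higher in stamen with both scalings took 72.2 to 73.1% of the stamen reads and 10.9, 8.76 and 8.64% of the reads of pistil replicates 1, 2 and 3. The part of these reads in the pistil levels of stamen genes was not tested. The count of stamen calls was 9574 without pistil replicate 1.

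**Figure D3:**
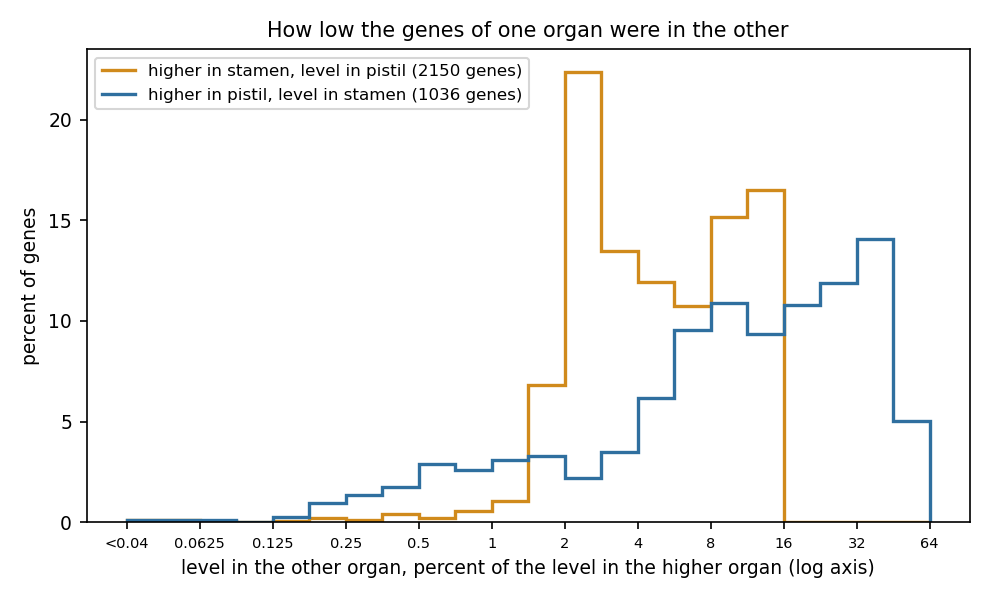
For genes called with both scalings and at 50 CPM or more in the higher organ, the x axis gives the level in the other organ as a percentage of the level in the higher organ (log axis) and the y axis the percentage of genes. The 2150 stamen genes have a median of 4.59% and the 1036 pistil genes a median of 11.6%. The rule for calls limits the stamen genes to 16% and lets the pistil genes reach higher shares.

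The 40 stamen genes under 1% are by that limit genes of large fold change. GLUTAMINE DUMPER 3-like, whose Arabidopsis namesake promotes amino acid export from cells (CqNL-6_009686, chromosome 18, 7064646 to 7064987), had 250.2, 378 and 244 CPM in stamen against 0.0444, 0.128 and 0.365 CPM in pistil, a log2 fold change of 10.57 ± 0.35 (SE, adjusted p = 7.0e-11). CYP76AD4, a cytochrome P450 of the subfamily that makes betalain pigments in the order of quinoa (CqNL-6_010972, chromosome 5, 1759568 to 1766237), had 88.4, 96.2 and 106 CPM in stamen against 0.178, 0 and 0 CPM in pistil, and only pistil replicate 1 had any read. Lack of overlap was a condition for choosing both, and pistil replicate 1 was not the highest for the former. The polygalacturonase QRT2, which in Arabidopsis helps pollen grains part from their tetrads (CqNL-6_009609, chromosome 18, 7664250 to 7667952), had 63.8, 78.7 and 71.2 CPM in stamen against 0.222, 0.0852 and 0.446 CPM in pistil. Its second copy (CqNL-6_000631) had 101.3 ± 4.06 CPM in stamen and 0.365 ± 0.112 CPM in pistil.

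ECERIFERUM 1-like, an enzyme of wax alkane synthesis (CqNL-6_000875, chromosome 10, 71879578 to 71884114), had 908, 912 and 1029 CPM in stamen against 4.49, 6.61 and 6.04 CPM in pistil, a log2 fold change of 7.37 ± 0.21 (SE, adjusted p = 5.0e-11). ECERIFERUM 3, its partner in alkane synthesis, named after its values were seen (CqNL-6_030554), had 279 ± 19.5 CPM in stamen and 17.3 ± 1.96 CPM in pistil. A different gene titled ECERIFERUM 1 (CqNL-6_002176) was level with TMM, at 118 ± 14.5 and 111 ± 5.68 CPM, with a log2 fold change of 0.09, and it was a pistil call with the total library size. WIN1, an ethylene-responsive factor that switches on wax and cutin genes (CqNL-6_007700), had 31.3, 43.2 and 31.0 CPM in stamen against 0.755, 0.980 and 1.01 CPM in pistil. The ABC transporter G6-like gene (CqNL-6_051249) had 55.6, 98.3 and 78.3 CPM in stamen against 0.533, 0.511 and 1.05 CPM in pistil. The sugar transporter SWEET3 (CqNL-6_025990) had 83.3, 64.8 and 66.7 CPM in stamen against 1.02, 0.554 and 0.243 CPM in pistil.

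Other titled stamen genes had fold changes nearly as large. A lipid-transfer protein 1-like gene (CqNL-6_026762) had 969, 1232 and 778 CPM in stamen against 1.51, 2.73 and 2.52 CPM in pistil. Caffeoylshikimate esterase-like, an enzyme of phenolic synthesis (CqNL-6_051264), had 1124, 1349 and 1024 CPM in stamen against 9.60, 5.41 and 9.90 CPM in pistil. Expansin-like A2 (CqNL-6_049243) had 286, 372 and 359 CPM in stamen against 3.87, 1.02 and 3.33 CPM in pistil. A polygalacturonase-like gene (CqNL-6_015791) had 91.2, 86.6 and 95.2 CPM in stamen against 0.178, 0.298 and 0.0406 CPM in pistil. Polyamine oxidase 1 (CqNL-6_000645) had 117, 139.6 and 127 CPM in stamen against 1.16, 1.19 and 0.649 CPM in pistil, and trichome birefringence-like 41 (CqNL-6_007365) had a log2 fold change of 8.07. Lack of overlap between the organs was part of the rule that chose these genes. Lipid-transfer proteins as a list had calls on both sides, with 8 higher in stamen and 13 higher in pistil of 23 tested (7 and 15 with the total library size). With TMM these were 34.8% and 56.5%, beside 28.9% and 40.7% of all tested genes. With the total library size 13.3% and 66.7% of all tested genes were called. A gene with the same title as the stamen gene (CqNL-6_044530) had 0, 0.769 and 0.881 CPM in stamen against 113, 115 and 129 CPM in pistil. Of 17 tested genes titled tetraketide reductase, strictosidine synthase or fatty acyl-CoA reductase, families that include enzymes of the pollen wall polymer sporopollenin, 10 were higher in stamen and 4 in pistil (6 and 6). Tetraketide alpha-pyrone reductase 2-like (CqNL-6_055177) had 402, 404 and 390.0 CPM in stamen against 11.8, 8.40 and 7.67 CPM in pistil. An alcohol-forming fatty acyl-CoA reductase (CqNL-6_003540) was 477-fold higher in pistil (95% counting interval 163 to 2310, and 1550-fold with the total library size).

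A chitinase, protease inhibitors and storage proteins were among the highest pistil genes. Basic endochitinase A, which hydrolyses chitin (CqNL-6_036570, chromosome 6, 6029210 to 6035582), had the highest FPKM of the called and titled pistil genes, a mean of 5164. It had 6.91, 36.8 and 31.6 CPM in stamen against 4897, 4721 and 4497 CPM in pistil, a log2 fold change of -7.56 ± 0.51 (SE, adjusted p = 2.1e-08), and stamen replicate 1 was the lowest. A Kunitz-type trypsin inhibitor, which blocks serine proteases (CqNL-6_024168, chromosome 7, 70833182 to 70833823), followed with an FPKM of 2574, and had 0.863, 2.43 and 5.73 CPM in stamen against 1074, 873 and 812 CPM in pistil, a log2 fold change of -8.31 ± 0.39 (SE, adjusted p = 6.4e-10). The stamen libraries lay far below the pistil libraries and differed more among themselves.

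The Kunitz gene had neighbours of the same kind, looked up after its values were seen. Of 20 genes titled Kunitz-type inhibitor, factor Xa inhibitor or trypsin inhibitor, 11 were tested and all 11 were called higher in pistil with both scalings. On chromosome 7, 9 of the 20 lay between 70639954 and 70867861. In this stretch, CqNL-6_024167 had 0.247, 2.44 and 5.87 CPM in stamen against 782, 773 and 807 CPM in pistil, and CqNL-6_024174 had 2.34, 7.56 and 6.17 CPM in stamen against 854, 837 and 686 CPM in pistil. The factor Xa inhibitor gene CqNL-6_024165 at the end of the group had 0.123, 0.769 and 0.147 CPM in stamen against 103, 107 and 83.8 CPM in pistil. Near-identical copies in such a group can share reads, and how reads with several matches were counted was not stated for these data, which leaves the levels of single copies uncertain. Bark storage proteins, vegetative nitrogen stores known from poplar, were also looked up after these values were seen. Of 9 genes 7 were tested and all 7 were higher in pistil, among them CqNL-6_025959 on chromosome 6 with 0.123, 0.256 and 1.03 CPM in stamen against 219, 231 and 231 CPM in pistil.

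Other pistil genes with large fold changes were of several kinds. Protodermal factor 1, expressed in the outermost cell layer of cotton and Arabidopsis organs (CqNL-6_031694, chromosome 17, 51354305 to 51356893), had 0.617, 0.128 and 2.79 CPM in stamen against 461, 484 and 492 CPM in pistil, a log2 fold change of -8.75 ± 0.38 (SE, adjusted p = 3.7e-10). Its second copy, named after its values were seen (CqNL-6_029113), had 0.123, 0 and 2.64 CPM in stamen against 314, 304 and 331 CPM in pistil. The GDSL esterase At5g33370 (CqNL-6_034065) had 0, 0 and 0.441 CPM in stamen against 60.9, 59.1 and 114 CPM in pistil, was highest in pistil replicate 3, and was 596-fold higher in pistil (95% counting interval 204 to 2890, and 1930-fold with the total library size). Thaumatin-like protein (CqNL-6_015681), glucose/ribitol dehydrogenase (CqNL-6_049434) and cyclin-D3-1 (CqNL-6_020026) completed the pistil genes with the largest fold changes, at log2 fold changes of -8.38, -8.28 and -8.09. By FPKM, the pistil ranking went on with glycine-rich RNA-binding protein 7-like (CqNL-6_017988, FPKM 1288), 60S acidic ribosomal protein P2A (CqNL-6_018533, 1089), a deoxymugineic acid dioxygenase-like gene (CqNL-6_042292, 1026), histone H2B.3 (CqNL-6_018729, 939) and the antimicrobial peptide snakin-2 (CqNL-6_018419, 816). Of these, the RNA-binding protein had the smallest difference, a log2 fold change of -1.11 ± 0.27 (SE, adjusted p = 0.0018), with 126, 50.9 and 79.9 CPM in stamen against 207, 136 and 213 CPM in pistil. The range of its pistil libraries began only just above that of the stamen libraries, and without stamen replicate 2 the log2 fold change was -0.85 and not a call.

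Genes of protein synthesis and photosynthesis were higher in pistil almost throughout. Their counts stand beside 28.9% stamen and 40.7% pistil calls over all tested genes (13.3% and 66.7% with the total library size). Of 130 tested genes of the cytosolic ribosome 2 were higher in stamen and 118 in pistil (0 and 126 with the total library size), with a median log2 fold change of -3.15. 60S ribosomal protein L27a-3 (CqNL-6_013037) had 15.8, 21.4 and 14.5 CPM in stamen against 129, 118 and 139.6 CPM in pistil. The stamen members, L37a-2 (CqNL-6_033489) and L7-2-like (CqNL-6_036505), had log2 fold changes of 1.99 and 1.94, which fell to 0.30 and 0.24 with the total library size and were then not called. Plastid-type ribosomal proteins gave 1 against 47 of 51 tested (median -3.90, 1 and 50 with the total library size), photosystem and light-harvesting proteins 2 against 43 of 46 (median -3.91, 2 and 44) and Calvin cycle enzymes 1 against 14 of 17 (median -3.48, 1 and 15). These lists share genes with the green tissue markers, whose summed levels are given above, and the part of green tissue in their counts was not tested. The light-harvesting protein LHCb1.2 (CqNL-6_003432) had 34.7, 46.4 and 15.7 CPM in stamen against 192, 246 and 287 CPM in pistil, lowest in stamen replicate 3. A Rubisco activase gene (CqNL-6_002886) was the exception of the Calvin list, with 41.1, 32.4 and 46.4 CPM in stamen against 3.69, 3.88 and 3.37 CPM in pistil. Another activase gene (CqNL-6_009974) had 5.18, 4.49 and 3.52 CPM in stamen against 31.6, 40.5 and 46.5 CPM in pistil.

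Histone and cell cycle genes were mostly higher in pistil. The pistil share of all tested genes was 40.7% and the stamen share 28.9% (66.7% and 13.3% with the total library size). Of 29 tested histones 4 were higher in stamen and 22 in pistil (2 and 25 with the total library size), with a median of -3.09. The replication-type histone H3.2 (CqNL-6_007215, chromosome 4, 10499637 to 10500047) had 0.863, 1.15 and 2.64 CPM in stamen against 172, 135 and 181 CPM in pistil. The replacement histone H3.3 (CqNL-6_010471, chromosome 5, 7005444 to 7010404) had 344, 328 and 357 CPM in stamen against 8.44, 4.56 and 5.96 CPM in pistil. These 2 genes separated the organs without overlap, in opposite directions, but members were named per direction by the rule. Other genes of the 2 variants were not counted. Cyclins, replication licensing factors and DNA polymerases gave 6 higher in stamen and 24 higher in pistil of 38 tested (2 and 31). MCM5, which licenses replication origins (CqNL-6_047031), had 4.69, 4.87 and 2.94 CPM in stamen against 127, 115 and 117 CPM in pistil. A second cyclin-D3-1 gene (CqNL-6_018235) had 0.863, 0.256 and 0.881 CPM in stamen against 103, 109 and 104 CPM in pistil. Kinesins and tubulins gave 13 higher in stamen and 22 higher in pistil of 41 (3 and 28 with the total library size). MAP65-1, which bundles microtubules (CqNL-6_006567), had 1.604, 1.92 and 1.62 CPM in stamen against 110.2, 120.4 and 123 CPM in pistil. Tubulin alpha-2 (CqNL-6_016414) had 3886, 3621 and 4186 CPM in stamen against 945, 870.3 and 969.9 CPM in pistil, a stamen call with TMM (log2 fold change 2.07) but not with the total library size (0.37).

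**Figure D4:**
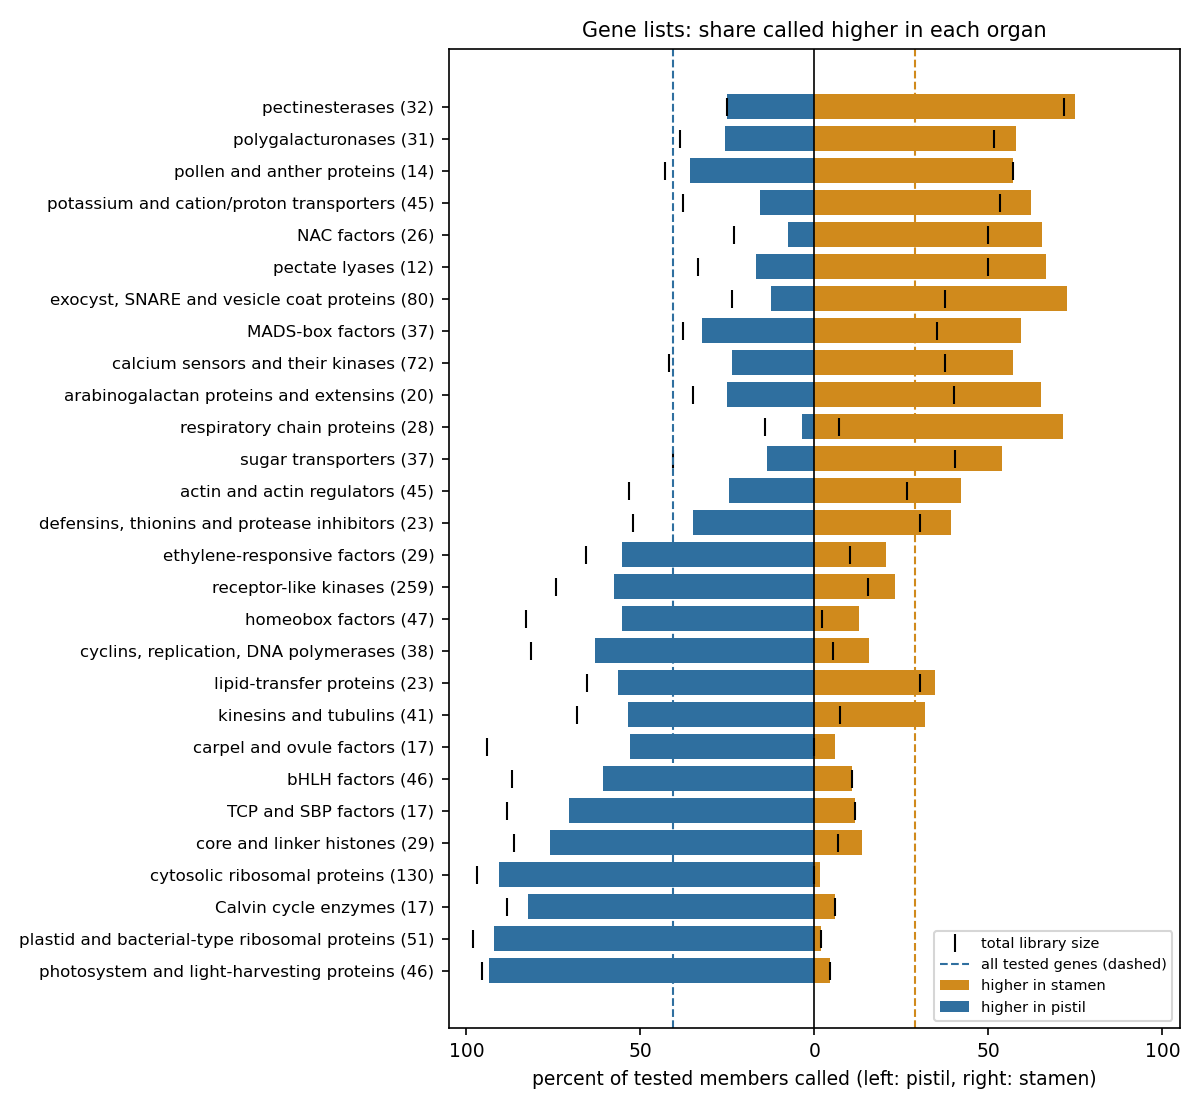
For 28 gene lists, bars give the percentage of tested members called higher in stamen (right) and in pistil (left), with the number tested in brackets and the lists ordered by median log2 fold change. Dashed lines mark the percentages over all tested genes (28.9 and 40.7%), and black ticks the percentages with the total library size. Pectin enzymes are at the stamen end, and ribosomal and photosynthetic proteins at the pistil end.

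Most transcription factor families other than MADS-box had more pistil than stamen calls, as did all tested genes. Of all tested genes 28.9% were higher in stamen and 40.7% in pistil with TMM, and 13.3% and 66.7% with the total library size. The bHLH, homeobox, TCP, MYB and ethylene-responsive lists exceeded the pistil share with TMM, and the WRKY list did not. With the total library size the ethylene-responsive list was just under that share. The bHLH list gave 5 higher in stamen and 28 higher in pistil of 46 tested (median -2.08, 5 and 40 with the total library size), homeobox factors 6 higher in stamen and 26 higher in pistil of 47 (median -1.57, 1 and 39), TCP, SBP and growth-regulating factors 2 higher in stamen and 12 higher in pistil of 17 (median -2.18, 2 and 15), MYB factors 10 higher in stamen and 26 higher in pistil of 45 (4 and 34) and ethylene-responsive factors 6 higher in stamen and 16 higher in pistil of 29 (3 and 19). A bHLH3-like gene (CqNL-6_014686, chromosome 9, 58832611 to 58858677) had 6.29, 6.41 and 11.01 CPM in stamen against 776, 651 and 778 CPM in pistil. Growth-regulating factor 1, a promoter of cell proliferation (CqNL-6_019220), had 0.617, 0.641 and 1.03 CPM in stamen against 29.5, 32.4 and 31.7 CPM in pistil. MYB305-like, whose namesakes act in flowers (CqNL-6_048152), was on the stamen side with 153, 135 and 126 CPM in stamen against 13.1, 8.65 and 14.2 CPM in pistil. NAC factors went the other way, with 17 higher in stamen and 2 higher in pistil of 26 tested (13 and 6 with the total library size), and NAC 72 (CqNL-6_006891) had 169.6, 100.6 and 102 CPM in stamen against 13.2, 11.4 and 6.73 CPM in pistil, highest in stamen replicate 1. WRKY factors gave 7 higher in stamen and 9 higher in pistil of 25 with TMM and 1 and 18 with the total library size. WRKY 75 (CqNL-6_041110) had 15.05, 9.74 and 14.7 CPM in stamen against 0.0889, 0.0852 and 0.122 CPM in pistil.

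Hormone genes were found on both sides. Gibberellin 20 oxidase, which makes gibberellin precursors (CqNL-6_030939), had 0.247, 0.256 and 0.294 CPM in stamen against 39.5, 32.6 and 44.5 CPM in pistil. The gibberellin repressor DELLA protein GAI1-like (CqNL-6_031260) had 0, 0.513 and 0 CPM in stamen against 21.1, 24.2 and 20.3 CPM in pistil. Gibberellin-regulated protein 2, a small secreted peptide (CqNL-6_001505), had 453, 428 and 448 CPM in stamen against 15.7, 10.95 and 10.6 CPM in pistil. The gibberellin list gave 9 higher in stamen and 8 higher in pistil of 19 tested. Cytokinin dehydrogenase 3, which degrades cytokinin (CqNL-6_035302), had 1.23, 0.897 and 1.47 CPM in stamen against 39.0, 39.8 and 41.6 CPM in pistil in a list with 11 higher in stamen and 13 higher in pistil of 32. Jasmonate genes gave 8 higher in stamen and 12 higher in pistil of 27. Among them the 13-lipoxygenase that opens the pathway (CqNL-6_044385) had 7.03, 5.25 and 9.84 CPM in stamen against 198, 205 and 234 CPM in pistil. The repressor TIFY 10A-like (CqNL-6_003700) had 142, 145 and 145 CPM in stamen against 20.1, 17.9 and 9.86 CPM in pistil. Auxin genes gave 24 higher in stamen and 22 higher in pistil of 60, among them auxin-induced in root cultures 12 (CqNL-6_013939) with 2209.9, 2154 and 2062 CPM in stamen against 69.1, 37.8 and 41.9 CPM in pistil. An auxin-repressed 12.5 kDa protein (CqNL-6_043612) had 19.1, 3.46 and 13.5 CPM in stamen against 348, 388 and 326 CPM in pistil. With the total library size the pistil members were in the majority in all 4 lists (8 and 10, 6 and 21, 6 and 18 and 13 and 35). The same held over all tested genes, of which 13.3% were higher in stamen and 66.7% in pistil with that scaling. With TMM these shares were 28.9% and 40.7%. None of the 3 tested brassinosteroid genes was called with TMM, and all 3 were higher in pistil with the total library size.

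Receptor-like kinases, through which pistil and pollen cells read their surroundings, were tested for 259 of 528 genes, with 60 higher in stamen and 149 higher in pistil (40 and 192 with the total library size). PERK5, a proline-rich kinase (CqNL-6_031807), had 1650.5, 1563 and 1761 CPM in stamen against 58.3, 37.9 and 41.7 CPM in pistil. The leucine-rich repeat kinase BAM1 (CqNL-6_050904) had 0.740, 1.28 and 1.47 CPM in stamen against 90.8, 90.3 and 104.8 CPM in pistil. Genes titled S-type lectin receptor kinase or T2-type ribonuclease had 47 tested members. Of these, 7 were higher in stamen and 25 higher in pistil (4 and 38 with the total library size). Both lists stand beside 28.9% and 40.7% of all tested genes with TMM, and 13.3% and 66.7% with the total library size. The kinase CqNL-6_039502 had 0, 0 and 0.734 CPM in stamen against 57.7, 47.4 and 55.1 CPM in pistil, with reads in stamen replicate 3 only.

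The CrRLK1L receptor kinases, which sense the cell wall, and their ligands the RALF peptides have known partners on both sides of pollination. In Arabidopsis, ANX and BUPS receptors keep the pollen tube intact with the ligands RALF4 and RALF19, and FERONIA acts in the female tissue that receives the tube. The names below are those of the study for the quinoa loci, each with its Arabidopsis homolog. Of 24 CqCrRLK1L loci 21 were tested, with 4 higher in stamen and 9 higher in pistil (4 and 17 with the total library size). These counts stand beside 28.9% stamen and 40.7% pistil calls over all tested genes (13.3% and 66.7% with the total library size). The ANX homolog CqCrRLK1L12 (CqNL-6_023958, chromosome 13, 22769674 to 22772277) had 1362, 1348 and 1597 CPM in stamen against 49.2, 35.8 and 33.5 CPM in pistil. The ANX homolog CqCrRLK1L23 (CqNL-6_047183, chromosome 3, 26534288 to 26536888) had 1452, 1368 and 1611 CPM in stamen against 46.2, 31.7 and 30.02 CPM in pistil. The BUPS homolog CqCrRLK1L21 (CqNL-6_018028, chromosome 17, 6803889 to 6806687) had 1980.1, 1931 and 2318 CPM in stamen against 73.9, 51.0 and 52.8 CPM in pistil. The BUPS homolog CqCrRLK1L25 (CqNL-6_020270, chromosome 3, 7511897 to 7514688) had 843, 789 and 903 CPM in stamen against 27.9, 16.5 and 17.2 CPM in pistil. The 4 log2 fold changes lay between 5.13 ± 0.22 and 5.36 ± 0.23 (SE), the groups did not overlap, and pistil replicate 1 was the highest pistil library for each.

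The FERONIA homologs were nearly level with TMM. CqCrRLK1L15 (CqNL-6_049660, chromosome 13, 67276194 to 67278833) had 38.4, 36.8 and 37.3 CPM in stamen against 41.2, 47.6 and 37.6 CPM in pistil. CqCrRLK1L24 (CqNL-6_044443, chromosome 3, 75206518 to 75209157) had 44.4, 49.0 and 45.4 CPM in stamen against 53.5, 58.9 and 51.2 CPM in pistil. Their log2 fold changes of -0.17 ± 0.12 and -0.24 ± 0.11 (SE) were not called (adjusted p = 0.19 and 0.056), but were -1.87 and -1.94, both pistil calls, with the total library size. Ranges of the former overlapped between organs. The 9 pistil calls were CqCrRLK1L5, 6, 7, 11, 13, 14, 16, 20 and 22. Among them the THESEUS1 homolog CqCrRLK1L11 (CqNL-6_006913) had 2.59, 6.79 and 1.17 CPM in stamen against 13.8, 15.2 and 15.9 CPM in pistil. CqCrRLK1L7 (CqNL-6_000746) had 0.123, 0.384 and 0.441 CPM in stamen against 23.9, 23.4 and 22.4 CPM in pistil. CqCrRLK1L5, 6 and 16 had no read in stamen and at most 2.58 CPM in pistil. The other 8 tested loci were not called with TMM and were higher in pistil with the total library size. Without stamen replicate 2, CqCrRLK1L26 (CqNL-6_031100) became a pistil call with TMM, at a log2 fold change of -1.05. The 3 untested loci, CqCrRLK1L3, 4 and 9, had at most 5 reads over the libraries of either organ.

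Of 16 CqRALF loci 10 were tested, with 3 higher in stamen and 3 higher in pistil (3 and 5 with the total library size). Among all tested genes 28.9% were higher in stamen and 40.7% in pistil (13.3% and 66.7% with the total library size). The RALF4/19 homologs CqRALF2 and CqRALF17 were both stamen genes. CqRALF2 (CqNL-6_007158, chromosome 4, 9427853 to 9428697) had 2191, 2101 and 1906 CPM in stamen against 73.3, 46.4 and 45.4 CPM in pistil. CqRALF17 (CqNL-6_022438, chromosome 12, 7855818 to 7856665) had 2211, 2235 and 1968 CPM in stamen against 63.4, 45.6 and 49.1 CPM in pistil. Their log2 fold changes were 5.23 ± 0.24 and 5.34 ± 0.21 (SE, adjusted p = 5.2e-10 and 1.5e-10), in the range of the ANX and BUPS homologs. CqRALF12 (CqNL-6_016276) was a low stamen gene with 3.58, 5.13 and 3.38 CPM in stamen against 0.400, 0.554 and 0.243 CPM in pistil. CqRALF6 (CqNL-6_008749, chromosome 7, 3309815 to 3310207) had 0.123, 0 and 0.147 CPM in stamen against 50.2, 50.2 and 48.8 CPM in pistil. CqRALF10 (CqNL-6_011534, chromosome 15, 51694123 to 51694515) had 0, 0.128 and 0 CPM in stamen against 48.5, 49.9 and 49.7 CPM in pistil. Both were even across the pistil libraries and nearly unread in stamen. With 2 and 1 reads in stamen, CqRALF6 was 565-fold higher in pistil (95% counting interval 156 to 4660, and 1830-fold with the total library size) and CqRALF10 was 1120-fold higher in pistil (95% counting interval 201 to 44300, and 3640-fold with the total library size). CqRALF11 (CqNL-6_016280) was also higher in pistil (log2 fold change -3.34). CqRALF3/4, 7, 8 and 15/16 were not called with TMM, and CqRALF3/4 and 15/16 were higher in pistil with the total library size. The 6 untested loci had at most 14 reads over the libraries of either organ.

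**Figure D5:**
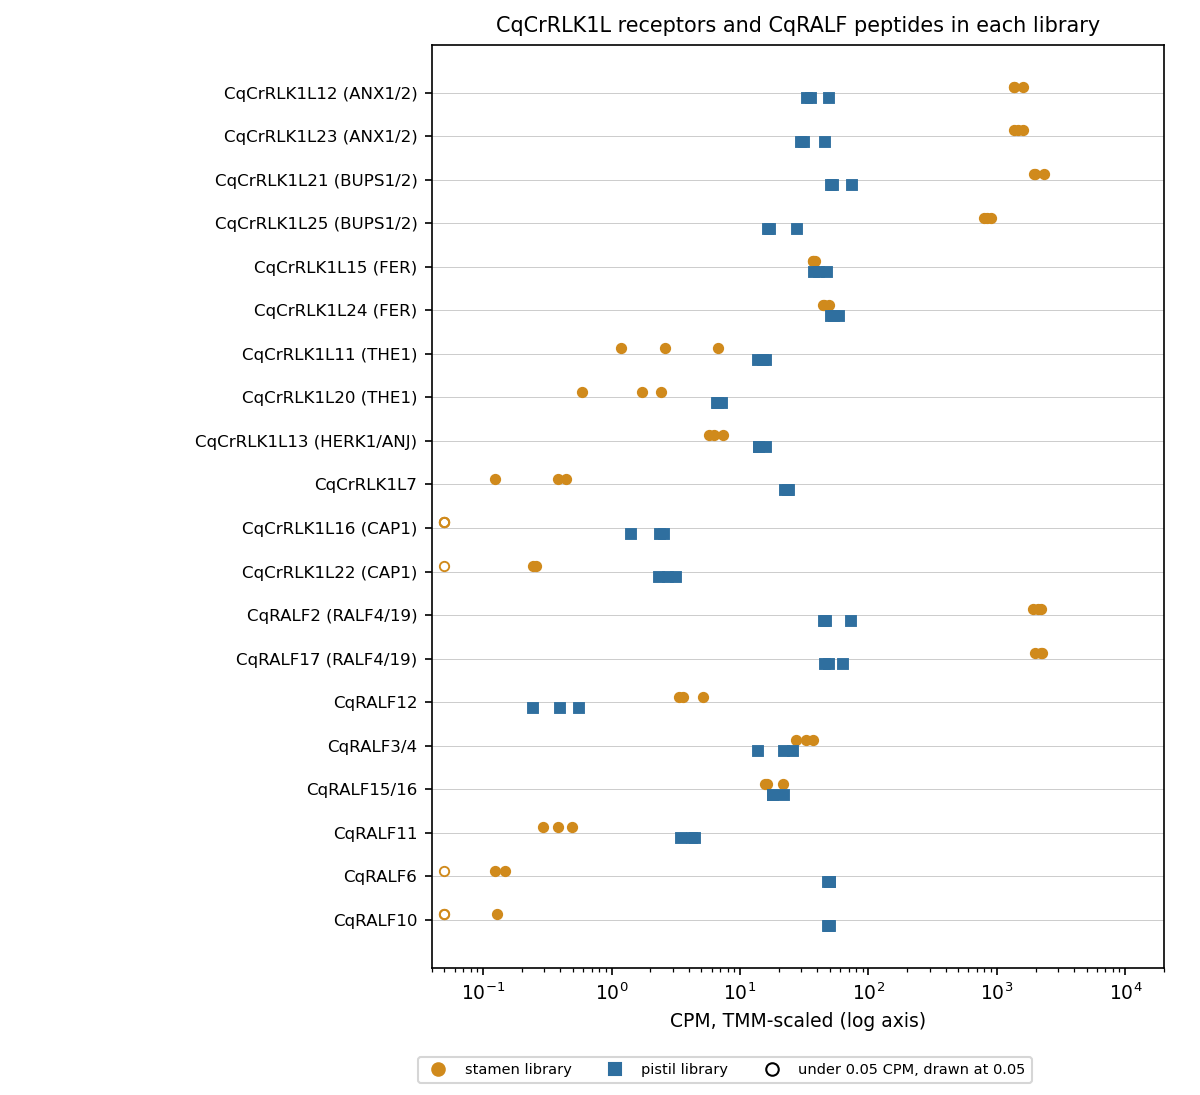
Levels of 12 CqCrRLK1L receptor kinases and 8 CqRALF peptides in each library, in TMM-scaled CPM on a log axis, with the Arabidopsis homolog in brackets. Circles are stamen libraries, squares are pistil libraries, and open symbols are values under 0.05 CPM. The ANX, BUPS and RALF4/19 homologs stand at 789 to 2318 CPM in stamen, and CqRALF6 and CqRALF10 at 48.5 to 50.2 CPM in pistil.

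Few genes were read in stamen and not at all in pistil. With at least 10 reads in every library of one organ and none in the other, 32 genes were stamen genes (12 with a title) and 914 were pistil genes (266 with a title). The stamen count was 66 without pistil replicate 1 and 52 without pistil replicate 3. The same reads stood for a higher TMM-scaled level in stamen, where 3 reads over 3 libraries were 0.132 CPM, against 0.0425 CPM in pistil. At equal CPM a gene was thus more easily unread in stamen. The part of this in the unequal counts was not tested. The most read stamen gene with a title was a heat shock cognate 70 kDa protein-like gene (CqNL-6_002438), with 172, 163 and 153 reads in the stamen libraries, at least 507-fold higher than pistil (at least 156-fold with the total library size). Among the titled genes on the pistil side FBP24 led, followed by a nek3-like kinase (CqNL-6_030944) with 775, 809 and 883 reads. The pistil genes also held YABBY 4 (CqNL-6_012974), whose Arabidopsis counterpart forms the outer coat of the ovule, with 257, 226 and 307 reads, and AINTEGUMENTA (CqNL-6_011701), which drives ovule and organ growth, with 185, 196 and 201 reads. These titles were picked after the values were seen, and the bounds cover counting error only.

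Genes with like titles sometimes divided between the organs. Whether such genes are copies of one another was not tested. Argonaute 4, which guides DNA methylation by small RNAs, had a stamen gene (CqNL-6_041229, chromosome 9, 42214401 to 42220512) with 164, 152 and 162 CPM in stamen against 21.9, 15.6 and 16.5 CPM in pistil. The pistil gene with an Argonaute 4 title (CqNL-6_042030, chromosome 11, 55669133 to 55674558) had 38.9, 50.5 and 45.5 CPM in stamen against 613, 632 and 619 CPM in pistil. Beta-amylase, which breaks down starch, had a stamen gene (CqNL-6_043878) with 1243, 1015 and 1268 CPM in stamen against 33.99, 24.4 and 23.7 CPM in pistil. The pistil gene with a beta-amylase title (CqNL-6_031665) had 0.987, 2.05 and 4.55 CPM in stamen against 298, 332 and 324 CPM in pistil. In both pairs the libraries of the organs did not overlap for either gene. Genes titled caffeoylshikimate esterase divided in the same way, with the stamen gene named above and a pistil gene (CqNL-6_014604) at 1.97, 4.49 and 1.32 CPM in stamen against 55.2, 54.2 and 64.2 CPM in pistil.

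Genes often used as expression references also differed. Stamen and pistil calls made up 28.9% and 40.7% of all tested genes (13.3% and 66.7% with the total library size). Of 41 tested genes of the usual reference families 21 were higher in stamen and 11 in pistil (4 and 19 with the total library size). Elongation factor 1-alpha (CqNL-6_027707) had 66.4, 55.7 and 63.3 CPM in stamen against 438, 451 and 524 CPM in pistil. A ubiquitin-conjugating enzyme E2 28-like gene (CqNL-6_026012) had 372, 366 and 347 CPM in stamen against 106, 119 and 99.7 CPM in pistil, a log2 fold change of 1.74 with TMM and 0.04 with the total library size. The calls of respiratory chain proteins changed with the scaling, with 20 higher in stamen and 1 higher in pistil of 28 tested with TMM (median 1.56) and 2 and 4 with the total library size.

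The remaining lists are given by their counts with TMM, followed in brackets by the stamen and pistil counts with the total library size. Over all tested genes 28.9% were higher in stamen and 40.7% in pistil with TMM, and 13.3% and 66.7% with the total library size. Callose and cellulose synthases and glucanases gave 15 higher in stamen and 12 higher in pistil of 36 tested (8 and 19), expansins and xyloglucan enzymes 7 higher in stamen and 6 higher in pistil of 14 (6 and 7), and invertases and sucrose synthases 7 higher in stamen and 2 higher in pistil of 14 (3 and 6). Starch enzymes gave 5 higher in stamen and 6 higher in pistil of 17 (3 and 12), proton pumps 8 higher in stamen and 1 higher in pistil of 18 (5 and 6), oil body proteins 3 higher in stamen and 2 higher in pistil of 6 (2 and 3), and defensins, thionins and protease inhibitors 9 higher in stamen and 8 higher in pistil of 23 (7 and 12). Secretory peroxidases gave 13 higher in stamen and 10 higher in pistil of 28 (11 and 13), heat shock proteins 15 higher in stamen and 22 higher in pistil of 50 (11 and 30), late embryogenesis abundant proteins 1 higher in stamen and 0 higher in pistil of 4 (1 and 3), and chromatin and small RNA proteins 10 higher in stamen and 26 higher in pistil of 58 (5 and 48). Meiosis proteins gave 1 higher in stamen and 4 higher in pistil of 11 (0 and 9), phenylpropanoid and flavonoid enzymes 15 higher in stamen and 28 higher in pistil of 57 (8 and 40), cytochrome P450 enzymes 43 higher in stamen and 35 higher in pistil of 96 (29 and 49), F-box and ubiquitin ligase proteins 138 higher in stamen and 109 higher in pistil of 365 (60 and 209), and transposon proteins 1 higher in stamen and 1 higher in pistil of 2 (1 and 1). The order of the 2 counts turned from stamen to pistil with the total library size for callose, expansin, invertase, proton pump, oil body, defensin, peroxidase, late embryogenesis abundant, cytochrome P450 and ubiquitin ligase lists. Within the heat shock list, heat shock protein 90 (CqNL-6_006426) had 36.1, 37.9 and 24.4 CPM in stamen against 406, 441 and 463 CPM in pistil. A class I small heat shock protein (CqNL-6_053117) had 154, 168 and 141 CPM in stamen against 3.15, 2.17 and 2.76 CPM in pistil.

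Calls of both directions were spread over the genome. On the 18 chromosomes 26.9 to 31.1% of the tested genes were higher in stamen and 38.9 to 42.3% in pistil. The median gene length was 1464 bases for stamen calls and 1644 for pistil calls, beside 1609 for all tested genes. An informative title was found for 26.9% of the stamen calls and 25.3% of the pistil calls, beside 25.1% of the tested genes, so most genes that differed between the organs carried none.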

How the data were processed

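RNA from stamens and pistils of quinoa NL-6 was sequenced as paired-end reads by the authors, who used HISAT2 2.1.0 for alignment against the genome of the same variety and HTSeq for counting. Its version, strand setting and treatment of reads with several matches were not given in the sources read, so levels of near-identical copies and of overlapping or antisense genes are uncertain. The deposited count table holds raw counts per gene, and the FPKM values beside them were computed and deposited by the authors. Titles were taken from the deposited similarity annotation. No genome was used here, and the gene identifiers matched 0 entries of the reference gene table.

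Counts were tested with the quasi-likelihood test of edgeR 4.0.16 (limma 3.58.1, R 4.3.3) on the 6 libraries, stamen against pistil, after filterByExpr, with TMM scaling and Benjamini-Hochberg adjustment over 32373 genes. A call needed an adjusted p under 0.05 and a log2 fold change of at least 1. On simulated counts of 32193 genes the test recovered 97 of 100 genes made to differ 2-fold and 100 of 100 made to differ 4-fold, with 11 false calls. Recovery was scored by adjusted p and direction, without the fold minimum. Far more genes differed between the real organs, so these counts do not measure recovery or false calls in the real data. Alternatives were the total library size, upper-quartile scaling, DESeq2 1.42.0, no read filter, all 12 untreated libraries, a replicate block, each library left out, and other fold and read minimums. Tables and figures were made with Python 3.11.15, pandas 2.3.3, numpy 2.4.6 and matplotlib 3.10.9.

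Titles were sorted into 56 word lists, and 2 receptor and peptide families were taken by locus. Named genes were, per organ, the 12 titled genes with the largest fold change (called with both scalings, at least 50 CPM in that organ, no overlap of libraries) and the 8 with the highest FPKM, then the 2 members with the highest FPKM per list and direction, and all family loci. A title was named once per part of the rule, and second copies of a named title were chosen after their values were seen. A copy here means a gene of the same title, since no sequences were compared. Members and lists were chosen with earlier results of these data known. For a gene with no read in an organ, a bound was set at 3 reads over its libraries. With 1 to 3 reads, the ratio was given with an exact binomial 95% interval, which covers counting error only.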

Additional observations from a re-analysis of the deposited data

How the results depend on the processing

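With the total library size 4314 genes were called higher in stamen and 21584 in pistil, and of 261 named genes 225 kept their direction and call, 14 lost their call, 8 gained one, 2 moved and 12 changed sign. These 12 were CqNL-6_005986 (log2 fold change -0.32 with the total library size), CqNL-6_045473 (-0.16), CqNL-6_049168 (-0.49), CqNL-6_025846 (-0.41), CqNL-6_035138 (-0.61), CqNL-6_050918 (-0.43), CqNL-6_024289 (-0.53), CqNL-6_027769 (-0.29), CqNL-6_007978 (-0.39), CqNL-6_004758 (-0.12), CqNL-6_002275 (-1.59) and CqNL-6_028401 (-1.05). The other settings gave 8450 to 10754 genes higher in stamen and 12666 to 14558 higher in pistil: upper quartile 8450 and 14272, DESeq2 9698 and 12666, no read filter 10507 and 14558, and all 12 untreated libraries 10754 and 12884. Without a fold minimum 11825 and 15537 genes were called, and 5924 stamen genes reached a log2 fold change of 2. Leaving out one library gave 9375 to 9574 stamen calls and 13238 to 13474 pistil calls. Upper quartile, DESeq2, no read filter, all 12 untreated libraries and each library left out changed the call of at most 3 of the named genes each. Genes read in stamen and not in pistil numbered 375 at a minimum of 1 read and 5 at 50 reads, and 38 to 66 with one library left out. Genes read in pistil and not in stamen numbered 2235, 269 and 956 to 1339 in the same order. Same-numbered libraries did not deviate together (correlations of 0.006, 0.008 and -0.001), so the numbers do not pair them. With the replicate block 9273 genes were higher in stamen and 13040 in pistil, and all 261 named genes kept their call. Depth limits statements on genes near 3 reads over an organ's libraries (0.132 CPM in stamen, 0.0425 CPM in pistil).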
